A study of Mus musculus with 8 samples.

Results

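TWEAK, the product of Tnfsf12, belongs to the TNF superfamily of cytokines and acts through the receptor Fn14, the product of Tnfrsf12a. The comparison described here is between primary wild-type mouse lung fibroblasts given recombinant TWEAK at 100 ng/ml and the same kind of cells given 10 ng/ml, both for 48 hours. It rests on 4 of the 8 libraries of the study, 2 for each dose, which were picked by the dose in the sample titles. The other 4 were 2 untreated libraries and 2 at 30 ng/ml. All cultures grew in DMEM with fetal bovine serum, and the labels give no age or sex of the mice. All genes with a symbol were considered, and 17360 of 52110 such rows had enough counts to be tested. Whether the 2 libraries of a dose are separate cultures or animals is not in the labels, and the p-values then reflect only a spread between libraries that could be technical.

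Fn14 has no enzyme activity of its own and recruits TRAF adaptors and the cellular inhibitors of apoptosis. Through them it can engage the canonical NF-kB pathway, in which inhibitor proteins are degraded to free RelA and p50. It can also engage the noncanonical pathway, in which the kinase NIK drives processing of p100, the Nfkb2 product, to p52, the partner of RelB. Several genes of both pathways are themselves NF-kB targets, which closes feedback loops. Fibroblasts of the lung make the collagens, proteoglycans and growth factors of the interstitium, and under inflammatory signals can express chemokines and adhesion molecules.

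The labelled doses did not order the libraries. Total counts in genes with a symbol were 37278985 and 42433948 in the 10 ng/ml libraries and 39351324 and 40410973 in the 100 ng/ml libraries. On the first principal component of log2 expression, which held 67.5% of the variance, untreated libraries lay at -43.77 and -42.36. Those at 100 ng/ml lay at -24.47 and -24.49, those at 30 ng/ml at 22.83 and 31.92, and those at 10 ng/ml at 39.42 and 40.93. The libraries labelled with the highest dose thus lay nearest to the untreated ones. The numbered sample codes in the labels run in the same order, from untreated through 100 and 30 to 10 ng/ml. An exchange of the 10 and 100 ng/ml labels, which would turn every direction given here, was not tested, and groups are named as labelled throughout. Mesenchymal markers had counts in all libraries, with Col1a2 between 2960 and 4500 CPM (each count scaled to a common library total). Thy1 was lower, between 31.0 and 84.9 CPM. Their sums were not level, at 11260 and 11140 CPM at 10 ng/ml and 18920 and 19940 CPM at 100 ng/ml. Of the 8 markers 5 were higher and 3 lower at 100 ng/ml (edgeR adjusted p under 0.05). The epithelial marker Epcam, the myeloid marker C1qa and the endothelial markers Tie1 and Emcn had 0 counts in all 8. Other markers of these cell types had counts and are described below.

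Between the doses, 3816 genes were called at an edgeR adjusted p under 0.05, which is 22.0% of the genes tested. At 100 ng/ml 1864 were higher (10.7%) and 1952 lower (11.2%), and the median log2 difference over all genes was 0.0. Of the calls, 614 were at least 2-fold higher and 635 at least 2-fold lower at 100 ng/ml, and 202 and 231 were at least 4-fold apart. The 2 doses did not overlap in CPM in 10511 genes, or 60.5% of those tested. Most tested members were lower at 100 ng/ml in the lists of noncanonical NF-kB, lymphoid stroma, class I antigen presentation, mitosis, DNA replication and glycolysis. Most were higher in those of collagen chains, matrix proteoglycans, collagen processing, lung fibroblast identity, TGF-beta and BMP signalling and cGMP. Among the fits that left out 1 library, the number of calls was lowest, 2406, without TWEAK100 replicate 1, and was 2524 without TWEAK10 replicate 1.

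Exons of Fgf10, Tnfsf12, Rspo3, Ripk1, Cxcl10, Hif1a, Top2a, Cxcl16, Col7a1, Chmp3, Aspn, Hsp90b1, Timp3, Pde2a, Il4i1, Cfb, Bmp4, Colq, Prelp, Enpp2, Rpl3, Rpl5, Bst1, Nfkb2, Csf2rb, Col4a1, Col3a1, Me1, Ltbp2, Irf1, H2-Q4, Pcdhga2, Des, Icam1, Bmp5, Slc2a1, Pde5a, Lox, Il16, Itga8, Clcf1, Cd34, Il2rg, Sfrp2 and Loxl2 overlap exons of another gene, and whether strand was used in counting is not given in the sources used here, so the counts of these genes are uncertain. No annotated gene was matched to the symbols Gucy1a3 and Gucy1b3, so overlap of their exons was not checked.

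**Figure D1:**
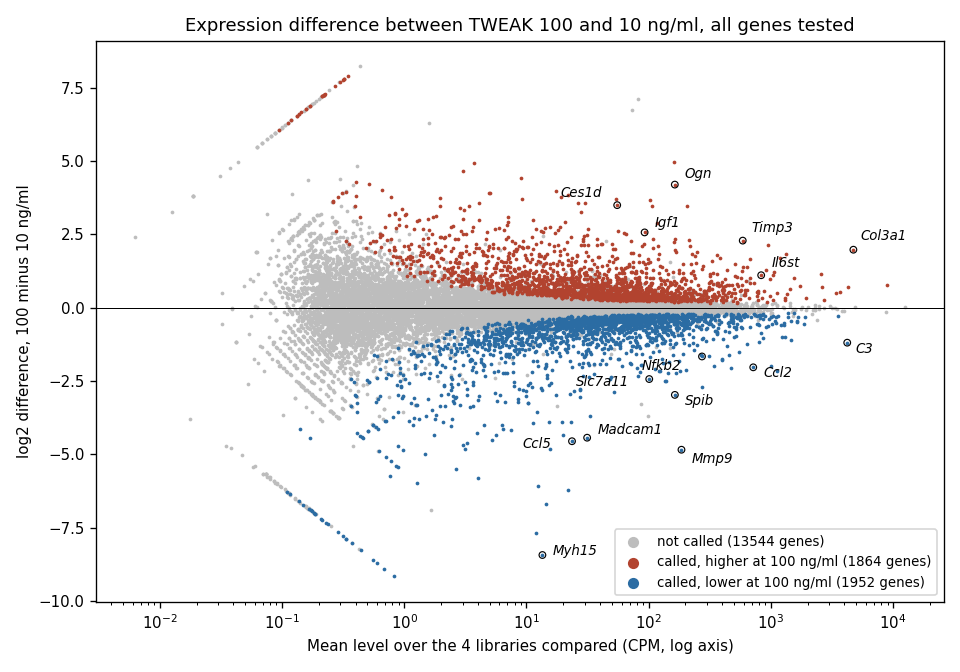
Each point is 1 of the 17360 genes, with its mean CPM over the 4 libraries on a log axis and its log2 difference (100 minus 10 ng/ml). Red and blue mark the 1864 higher and 1952 lower calls, and the diagonal streaks at the left hold genes with 0 counts at 1 dose, whose fitted difference is no measure of size.

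Promoters are shown for 5 genes that hold a match to the kappa B consensus, the decameric site of NF-kB dimers, in the 250 bases before their start. They were chosen after their values and matches were seen, and are not all the genes with a match. Sequences are those of RefSeq on GRCm38.p6, written in the direction of the gene, with matches on either strand in capitals. Expression of all 5 was lower at 100 ng/ml, as was that of Traf1, Birc3 and Icam1, whose promoters hold 0 matches.

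Nfkbia (chr12:55492648-55492897, minus strand): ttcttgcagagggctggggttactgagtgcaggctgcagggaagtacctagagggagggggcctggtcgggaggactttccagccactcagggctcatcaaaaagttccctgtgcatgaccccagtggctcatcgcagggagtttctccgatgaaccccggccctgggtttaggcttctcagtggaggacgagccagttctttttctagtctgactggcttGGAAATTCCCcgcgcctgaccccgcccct
Cxcl10 (chr5:92348890-92349139, minus strand): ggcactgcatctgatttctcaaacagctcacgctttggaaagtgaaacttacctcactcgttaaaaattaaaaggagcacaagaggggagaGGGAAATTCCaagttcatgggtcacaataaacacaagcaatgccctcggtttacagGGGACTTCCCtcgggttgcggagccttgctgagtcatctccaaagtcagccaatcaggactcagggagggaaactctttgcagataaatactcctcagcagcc
Nfkbie (chr17:45555450-45555699, plus strand): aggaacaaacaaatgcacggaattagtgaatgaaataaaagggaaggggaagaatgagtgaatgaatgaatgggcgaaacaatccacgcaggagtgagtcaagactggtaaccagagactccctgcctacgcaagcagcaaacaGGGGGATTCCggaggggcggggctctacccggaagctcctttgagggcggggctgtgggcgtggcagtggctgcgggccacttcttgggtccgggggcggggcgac
Madcam1 (chr10:79664309-79664558, plus strand): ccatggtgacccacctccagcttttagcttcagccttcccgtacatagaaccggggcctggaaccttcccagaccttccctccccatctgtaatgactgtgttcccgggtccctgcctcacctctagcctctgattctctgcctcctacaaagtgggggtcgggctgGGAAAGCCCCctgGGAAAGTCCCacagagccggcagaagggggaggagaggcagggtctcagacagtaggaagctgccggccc
Spib (chr7:44532072-44532321, minus strand): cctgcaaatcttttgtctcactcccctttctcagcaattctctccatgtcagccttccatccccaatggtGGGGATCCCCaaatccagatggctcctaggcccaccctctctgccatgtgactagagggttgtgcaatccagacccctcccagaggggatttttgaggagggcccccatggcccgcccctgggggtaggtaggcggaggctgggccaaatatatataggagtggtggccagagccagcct

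The match of Nfkbia lies 29 to 20 bases before the start, on the reverse strand, and Cxcl10 has matches at 159 to 150 and 103 to 94 bases. Madcam1 holds a pair at 83 to 74 and 70 to 61 bases, both on the reverse strand, and the match of Spib at 180 to 171 bases reads the same on both strands. A promoter was matched for 11452 of the genes tested. Of these 522 (4.56%) hold the consensus on either strand, against 101 of 1467 genes called lower at 100 ng/ml (6.88%) and 54 of 1366 called higher (3.95%). In the canonical NF-kB list 7 of 19 genes with a promoter hold it, and 6 of the 10 that were called. In the noncanonical list it was 2 of 8, and 1 of the 6 called, and among chemokines 5 of 14, and 2 of the 7 called. Each match to the consensus also fits a looser motif that keeps only its first 3 and last 2 letters, which 61.1% of all these promoters hold, and a match in letters is not a measured site.

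The receptor and the ligand moved little and in opposite directions. Tnfrsf12a stood at 33.3 and 32.3 CPM in the 10 ng/ml libraries and at 21.6 and 22.8 CPM in the 100 ng/ml libraries. Both libraries at 100 ng/ml were lower than both at 10 ng/ml and slightly higher than the untreated ones, at 18.6 and 19.8 CPM. The log2 difference was -0.56 ± 0.15 (SE, edgeR adjusted p = 0.0285), and this call was lost without either library of either dose (adjusted p from 0.0855 to 0.136). Tnfsf12 stood at 25.6 and 23.6 CPM at 10 ng/ml and at 35.9 and 31.3 CPM at 100 ng/ml, without overlap, near its untreated level of 33.4 and 33.6 CPM. Its log2 difference of 0.45 ± 0.11 (edgeR adjusted p = 0.0219) was not called without TWEAK100 replicate 1 (adjusted p = 0.133), TWEAK10 replicate 1 (0.0536) or TWEAK10 replicate 2 (0.109). On mm10, Tnfrsf12a lies on chromosome 17 from 23675445 to 23677468 and Tnfsf12 on chromosome 11 from 69686250 to 69695849.

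Genes of the noncanonical NF-kB pathway were lower at 100 ng/ml. Of its 9 listed members 7 fell, none rose and 2 did not pass the test, with a median log2 difference of -0.88. Nfkb2, the precursor of p52, stood at 408 and 422 CPM at 10 ng/ml and at 128 and 135 CPM at 100 ng/ml. Both 100 ng/ml libraries lay below every library at 10 and 30 ng/ml and above the untreated 61.5 and 59.3 CPM. The difference was -1.66 ± 0.07 (edgeR adjusted p = 1.93e-05). Relb, its dimer partner, fell from 77.7 and 65.1 to 25.2 and 29.5 CPM. Birc2 and Birc3, the ubiquitin ligases that hold NIK in check, fell by 1.57 ± 0.11 and 1.24 ± 0.08 on the log2 scale. Chuk, the kinase IKK alpha, stood at 67.4 and 72.2 against 78.2 and 74.7 CPM and was not called (edgeR adjusted p = 0.22). Traf3, which bridges NIK to those ligases, had a log2 difference of -0.88 ± 0.36 that did not pass (edgeR adjusted p = 0.133). It stood at 47.1 and 44.9 against 24.8 and 25.2 CPM, and its 30 ng/ml libraries lay far apart at 92.5 and 41.4 CPM. It was called lower without either 30 ng/ml library (edgeR adjusted p at most 0.0359) and with only the 4 libraries compared (0.00203), and over all alternatives the adjusted p ran up to 0.319. The count of 7 was 4 without TWEAK100 replicate 2 or TWEAK10 replicate 1.

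In the canonical pathway, the members that fell most were its feedback inhibitors and an adaptor. Of 23 members 11 fell and 1 rose, with a median of -0.39. Nfkbia, which encodes the inhibitor I kappa B alpha, stood at 196 and 198 CPM at 10 ng/ml and at 40.6 and 48.4 CPM at 100 ng/ml. The doses lay far apart, and 29.1 and 30.9 CPM in untreated cells were close below the 100 ng/ml libraries. The difference was -2.15 ± 0.12 (edgeR adjusted p = 4.3e-05). Nfkbie, which encodes a related inhibitor, fell by 2.36 ± 0.15, and Tnip1, a partner of the deubiquitinase A20, by 1.83 ± 0.12 on the log2 scale. Traf1, an adaptor of TNF receptors, fell from 45.2 and 42.5 to 3.72 and 2.10 CPM. The dimer subunit Rela, at 103 and 91.8 against 87.9 and 72.5 CPM, and the kinase Ripk1, at 80.4 and 81.1 against 86.0 and 83.2 CPM, were not called (edgeR adjusted p = 0.143 and 0.494). Nfkbiz, an atypical nuclear I kappa B protein, was the 1 member that rose, by 0.74 ± 0.13 on the log2 scale, from 51.4 and 67.5 to 92.2 and 106 CPM.

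**Figure D2:**
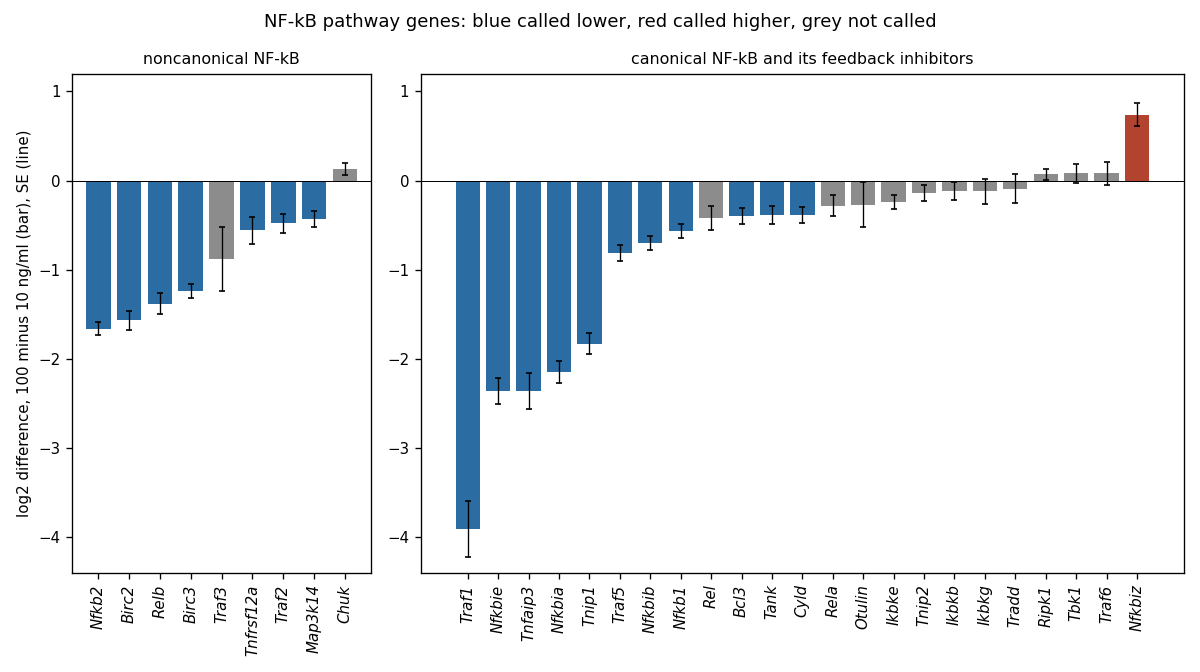
Bars give the log2 difference (100 minus 10 ng/ml) of the 9 noncanonical and 23 canonical NF-kB genes, and lines their SE. Blue bars are the 7 and 11 genes called lower, the red bar is Nfkbiz, and grey bars did not pass the test.

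Among TNF superfamily ligands and receptors, 13 of 26 tested fell and 4 rose (median -0.80). Tnfrsf10b, a death receptor, fell from 113 and 112 to 43.3 and 44.9 CPM, and Tnfrsf1b, the second receptor of TNF, from 228 and 225 to 161 and 158 CPM. Ngfr, the low-affinity neurotrophin receptor, had 228 and 272 counts at 10 ng/ml and 11 and 9 at 100 ng/ml, a ratio of 25 with a 95% counting interval from 16 to 41.3. The decoy receptor Tnfrsf22 fell by 1.11 ± 0.14 on the log2 scale. Tnfsf13b, which encodes BAFF, was not called, at 20.0 and 20.6 against 20.3 and 23.1 CPM. The 4 that rose, Tnfsf12, Tnfsf15, Tnfrsf1a and Ltbr, were 2 without TWEAK10 replicate 2.

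Chemokines moved in both directions. Of 20 tested, 8 fell, 4 rose and 8 were not called, with a median of -0.82. Ccl2, which recruits monocytes, stood at 1199 and 1104 CPM at 10 ng/ml and at 270 and 295.5 CPM at 100 ng/ml. Both 100 ng/ml libraries remained above the untreated 91.6 and 118 CPM. The difference was -2.03 ± 0.16 (edgeR adjusted p = 0.000125). Ccl5, which recruits T cells and other leukocytes, fell further, from 47.2 and 43.3 to 1.99 and 1.88 CPM (-4.55 ± 0.26). Cxcl16, the ligand of CXCR6, fell by 2.17 ± 0.08 and Ccl9 by 3.89 ± 0.30 on the log2 scale. Ccl11, which attracts eosinophils, stood at 15.4 and 18.4 against 17.7 and 17.8 CPM and Cxcl1, which recruits neutrophils, at 19.0 and 24.3 against 14.2 and 26.2 CPM, and neither was called. The members that rose, Cxcl5, Cxcl12, Cxcl14 and Cx3cl1, had log2 differences between 0.52 and 1.60.

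Cytokines were mixed. Of 20 tested, 7 fell and 3 rose (median -0.46). Lif, an IL-6 family cytokine, fell from 51.1 and 66.4 to 13.1 and 11.5 CPM, and Il33, an alarmin, from 211 and 250.5 to 65.0 and 62.0 CPM. Csf1, the macrophage growth factor, stood at 862 and 916.5 CPM at 10 ng/ml and at 366 and 390 CPM at 100 ng/ml. In all 3 genes the doses did not overlap and the 100 ng/ml libraries lay above the untreated ones. Il16 rose from 6.63 and 6.29 to 22.3 and 23.8 CPM (1.84 ± 0.11), and the other rises were those of Il6 and Kitl. Without TWEAK10 replicate 1 the number of rises was 5. Tslp and Clcf1 did not pass the test (edgeR adjusted p = 0.111 and 0.0669).

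Genes of lymphoid stroma, the fibroblastic scaffold of lymphoid organs, held the lowest median of the lists, -2.22. The lists were chosen with earlier results of these data known, so their ranks are descriptions only. Of 13 tested, 10 fell and none rose, or 1 rose without TWEAK100 replicate 1. Madcam1, an adhesion molecule that binds the integrin of gut-homing lymphocytes, stood at 62.0 and 58.0 CPM at 10 ng/ml and at 2.89 and 2.68 CPM at 100 ng/ml. It was at 0.16 and 0 CPM in untreated cells, so the 100 ng/ml libraries were low but not at the untreated level. Spib, an Ets-family transcription factor, fell from 301 and 280 to 37.1 and 36.9 CPM (-2.97 ± 0.21, edgeR adjusted p = 7.23e-05). Icam1, a leukocyte adhesion molecule, fell by 1.74 ± 0.08, and Enpp2, which makes lysophosphatidic acid, by 2.22 ± 0.14 on the log2 scale. Bst1 and Il4i1 had few counts at 100 ng/ml and their 2 libraries differed widely, with 10 and 36 counts for Bst1 and 21 and 1 for Il4i1. The pooled ratios of 10 over 100 ng/ml were 75.4 (95% counting interval from 56.4 to 103) and 105 (from 69 to 167). The size of both rests on which 100 ng/ml library is used. The fitted log2 difference of Bst1 was -5.58 without TWEAK100 replicate 1 and -7.41 without TWEAK100 replicate 2, and that of Il4i1 -10.01 and -5.76, all called. Ly6a, at 18.0 and 14.1 against 20.9 and 31.8 CPM, was not called (edgeR adjusted p = 0.0679).

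Class I antigen presentation was lower, with 13 of 24 members falling and none rising (median -0.57). H2-D1, a classical class I heavy chain, fell from 469 and 440 to 254 and 267 CPM, and H2-K1 from 319 and 289 to 147 and 160 CPM. The nonclassical H2-Q4 fell by 1.29 ± 0.12 and H2-Q7 by 2.54 ± 0.26 on the log2 scale. Reads of these similar genes may be shared. The chaperones Calr and Canx were not called, with differences of -0.01 ± 0.06 and -0.09 ± 0.05. Of 40 interferon-stimulated genes 31 were not called, 6 fell and 3 rose (median -0.18). Over all genes tested 22.0% were called, so the share called in this list was near that of all genes. Ifi205 fell from 86.9 and 96.7 to 10.9 and 14.1 CPM and Irf1 from 107 and 103 to 50.0 and 56.5 CPM, while Ifit2 rose from 15.1 and 14.8 to 32.0 and 34.8 CPM. The 6 falls were 2 without TWEAK100 replicate 1 or either 10 ng/ml library and 3 without TWEAK100 replicate 2. The 3 rises were 1 without TWEAK100 replicate 2 or TWEAK10 replicate 2, which each also ended the call on Isg20.

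Complement and acute phase genes split. Of 20 tested, 9 rose and 4 fell (median 0.31), and the rises included the acute phase genes Saa3, Hp and Serpina3n. Serpina3g went the other way, from 842 and 786 to 267.5 and 302 CPM (-1.51 ± 0.11). C3, the central component, stood at 5885 and 5826 CPM at 10 ng/ml and at 2375 and 2770 CPM at 100 ng/ml (-1.19 ± 0.08, edgeR adjusted p = 7.46e-05). Serping1, the inhibitor of the C1 complex, rose from 508 and 455 to 807 and 938 CPM, and C4b from 332 and 326 to 473 and 518 CPM. Cfb, of the alternative pathway, at 70.9 and 64.7 against 43.5 and 61.1 CPM, was not called.

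**Figure D3:**
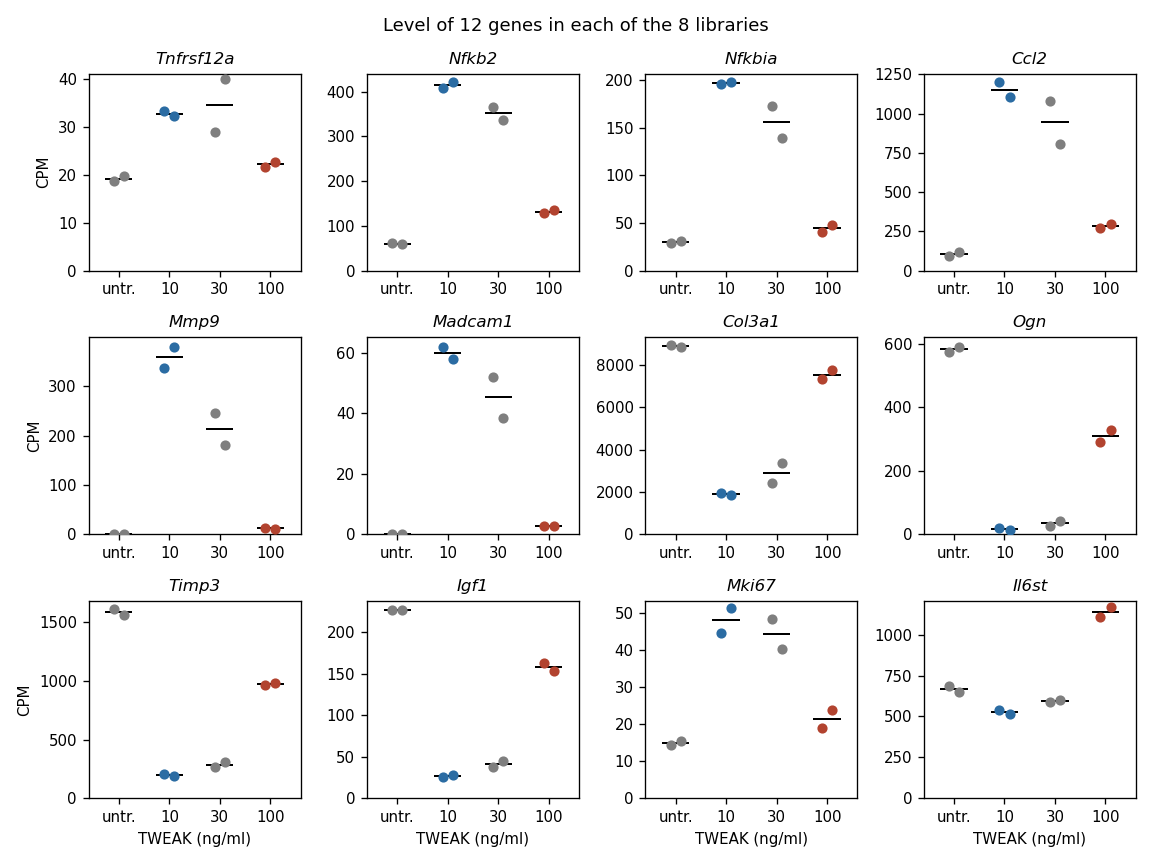
Points are the CPM of each library for 12 genes, with a bar at the mean of the 2 libraries, for untreated cells and 10, 30 and 100 ng/ml. In 11 panels the 100 ng/ml libraries lie between the 10 ng/ml and the untreated ones, and in that of Il6st they lie above all others.

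Collagen chains were higher at 100 ng/ml, 15 of 26 tested against 4 that fell (median 0.49). Col3a1, the type III fibrillar chain, stood at 1936 and 1886 CPM at 10 ng/ml and at 7336 and 7771 CPM at 100 ng/ml. The 100 ng/ml libraries lay just under the untreated 8955 and 8870 CPM. The difference was 1.98 ± 0.13 (edgeR adjusted p = 5.83e-05). Col1a1, of type I collagen, rose from 1673 and 1544 to 3549 and 3543 CPM, and Col5a2 and Col11a1, of types that set fibril diameter, by 1.03 ± 0.07 and 1.85 ± 0.13 on the log2 scale. The falls were those of Col5a3, Col7a1, Col12a1 and Col18a1, between -0.63 and -1.08. The basement membrane chain Col4a1, at 1354 and 1329 against 1460 and 1590 CPM, missed the threshold (edgeR adjusted p = 0.0541).

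The matrix proteoglycans and glycoproteins held the most called members of any list, 31 higher and 5 lower of 42 tested (median 0.76). Ogn, the small leucine-rich proteoglycan osteoglycin, stood at 19.1 and 14.7 CPM at 10 ng/ml and at 291 and 330 CPM at 100 ng/ml. The 100 ng/ml libraries were far above both 10 ng/ml libraries and below the untreated 575 and 592 CPM. The difference was 4.20 ± 0.22 (edgeR adjusted p = 3.57e-05). Aspn, a related proteoglycan that neighbours Ogn on chromosome 13, rose from 0.721 and 0.514 to 9.23 and 9.46 CPM, and Prelp from 363 and 337 to 896 and 940 CPM. Ltbp2, a microfibril protein, went the other way, from 1972 and 1984 to 918 and 919 CPM (-1.11 ± 0.04). Of the abundant proteoglycan genes, Bgn and Hspg2 had differences of 0.02 ± 0.05 and 0.01 ± 0.09 and were not called. The mesenchymal marker Dcn, which encodes the proteoglycan decorin, was called lower. It stood at 1400 and 1600 CPM at 10 ng/ml and at 1010 and 1090 CPM at 100 ng/ml. On mm10, Ogn spans 49608046 to 49624501 and Col3a1 lies on chromosome 1 from 45311538 to 45349706.

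Enzymes that process and crosslink collagen were also higher, 13 of 24 tested against 2 lower (median 0.33). Lox, the lysyl oxidase that starts crosslinks, rose from 111 and 106 to 372 and 373 CPM (1.78 ± 0.12), and its relative Loxl2 by 1.17 ± 0.08 on the log2 scale. Adamts2, which removes the amino propeptide of procollagen, rose from 561.5 and 500 to 1254 and 1318 CPM, while Adamts14, of the same protease family, fell from 47.9 and 44.2 to 13.6 and 11.5 CPM. Bmp1, the carboxy propeptidase, and P4ha1, a prolyl hydroxylase subunit, were not called. Matrix proteases and inhibitors divided evenly, 12 higher and 10 lower of 40 (median 0.05). Mmp9, a gelatinase, stood at 337 and 380 CPM at 10 ng/ml and at 13.2 and 11.8 CPM at 100 ng/ml, without overlap (-4.84 ± 0.17, edgeR adjusted p = 1.86e-05). Timp3, a matrix-bound protease inhibitor, moved oppositely, from 210 and 191 to 967 and 986 CPM (2.29 ± 0.08, edgeR adjusted p = 1.86e-05). Mmp10, a stromelysin, fell by 1.96 ± 0.09 and the aggrecanase Adamts5 rose by 1.52 ± 0.08 on the log2 scale. Mmp3 and Timp2, both abundant, were not called (0.11 ± 0.05 and -0.07 ± 0.05).

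Lung fibroblast identity genes had the highest median of the lists, 1.35, with 23 of 36 tested higher and 5 lower. This rank too is only a description, as the lists were chosen with earlier results known. Itga8, an integrin of alveolar fibroblasts, rose from 25.5 and 23.6 to 115 and 122 CPM (2.27 ± 0.08, edgeR adjusted p = 1.86e-05). The carboxylesterase Ces1d, a marker of lipid-storing fibroblasts in the lung, rose from 9.99 and 7.97 to 92.5 and 111 CPM. Sfrp1 and Sfrp2, secreted Wnt antagonists, rose by 2.13 ± 0.11 and 3.72 ± 0.17 on the log2 scale. In these 4 genes the 100 ng/ml libraries lay under the untreated ones and well above those at 10 ng/ml. The falls included Cd34, from 45.3 and 51.7 to 6.66 and 5.10 CPM, and Lpl, the lipoprotein lipase, from 195 and 267 to 44.3 and 37.8 CPM. Macf1 and Npnt were not called. Placing Inmt, with 0 counts at 10 ng/ml, at its bound (3 counts over the group) left the median at 1.35.

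Myofibroblast genes had 13 of 29 tested higher and 6 lower (median 0.37), but this list depended on single libraries. The rises were 8 without TWEAK100 replicate 2 and 6 without TWEAK10 replicate 2. Cthrc1, a secreted protein of collagen-producing fibroblasts, rose from 0.935 and 0.678 to 4.70 and 5.25 CPM (2.63 ± 0.21). Des, an intermediate filament gene, fell from 119 and 111 to 43.4 and 49.6 CPM, and the nonmuscle myosin gene Myh9 from 1901 and 1835 to 1354 and 1396 CPM. The defining myofibroblast gene Acta2, at 539 and 422 against 552 and 765 CPM, was not called (edgeR adjusted p = 0.125), with its 100 ng/ml libraries above those at 10 ng/ml but far from each other. Summed smooth muscle and pericyte markers stood at 214.5 and 193 against 188 and 208.5 CPM, so the sums overlapped, while single markers moved in both directions. Of 10 tested, 5 were called higher, among them Cnn1, a smooth muscle calponin, from 8.10 and 4.89 to 18.1 and 20.3 CPM, and 2 lower, among them Des.

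TGF-beta and BMP genes were mostly higher, 22 of 37 tested against 4 lower (median 0.54). Tgfb1 itself fell from 140 and 133 to 58.7 and 56.2 CPM (-1.25 ± 0.07). Bmp4, a ligand of the lung mesenchyme, rose from 5.69 and 4.79 to 48.0 and 54.1 CPM (3.28 ± 0.19), and Bmp5 by 1.70 ± 0.09 on the log2 scale. Nox4, an oxidase induced by TGF-beta, rose from 12.2 and 13.3 to 35.6 and 41.3 CPM. The signal transducer Smad3, at 196 and 208 against 191 and 189 CPM, was not called. The 4 falls were 2 without TWEAK100 replicate 1 and 1 without TWEAK100 replicate 2 or TWEAK10 replicate 2. In the Wnt list 12 of 25 tested rose and 1, Rspo2, fell (median 0.81, the same with Lgr5 at its bound). Lrp4, a co-receptor that binds Wnt antagonists, rose from 4.11 and 5.26 to 54.4 and 57.0 CPM (3.57 ± 0.23), and Rspo1, a Wnt agonist, from 2.14 and 2.32 to 11.2 and 12.4 CPM. Rspo3, at 200.1 and 208 against 182.5 and 189 CPM, was not called.

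Soluble guanylate cyclase, the receptor of nitric oxide, was higher at 100 ng/ml through both of its main subunits. Of 12 genes of cGMP signalling 9 rose and 2 fell (median 1.18). Gucy1a3 stood at 2.70 and 2.50 CPM at 10 ng/ml and at 35.9 and 35.1 CPM at 100 ng/ml, and Gucy1b3 at 4.73 and 4.91 and at 35.9 and 37.2 CPM. In both genes each 100 ng/ml library lay far above both 10 ng/ml libraries, and untreated levels ran from 54.0 to 69.9 CPM. The log2 differences were 3.77 ± 0.21 and 2.92 ± 0.13 (edgeR adjusted p = 3.82e-05 and 2.43e-05). The phosphodiesterases Pde1a and Pde5a, which degrade cyclic nucleotides, rose by 1.57 ± 0.10 and 1.18 ± 0.08 on the log2 scale. The falls were Prkg2 and Pde2a, of which 1 passed without TWEAK100 replicate 1 or either 10 ng/ml library.

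Growth factor genes did not move as a group, with 9 of 30 tested higher and 7 lower (median -0.01). Igf1, insulin-like growth factor 1, stood at 25.9 and 27.6 CPM at 10 ng/ml and at 163 and 154 CPM at 100 ng/ml, under the untreated 228 and 227 CPM (2.57 ± 0.10, edgeR adjusted p = 1.93e-05). Igfbp4, which binds it, rose from 654 and 625 to 1423 and 1560 CPM, and Fgf10, a mesenchymal signal to lung epithelium, from 59.8 and 67.5 to 162 and 147 CPM. Vegfc, a lymphatic growth factor, fell from 226 and 228 to 85.9 and 91.8 CPM. The 7 falls were 4 without TWEAK100 replicate 2.

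**Figure D4:**
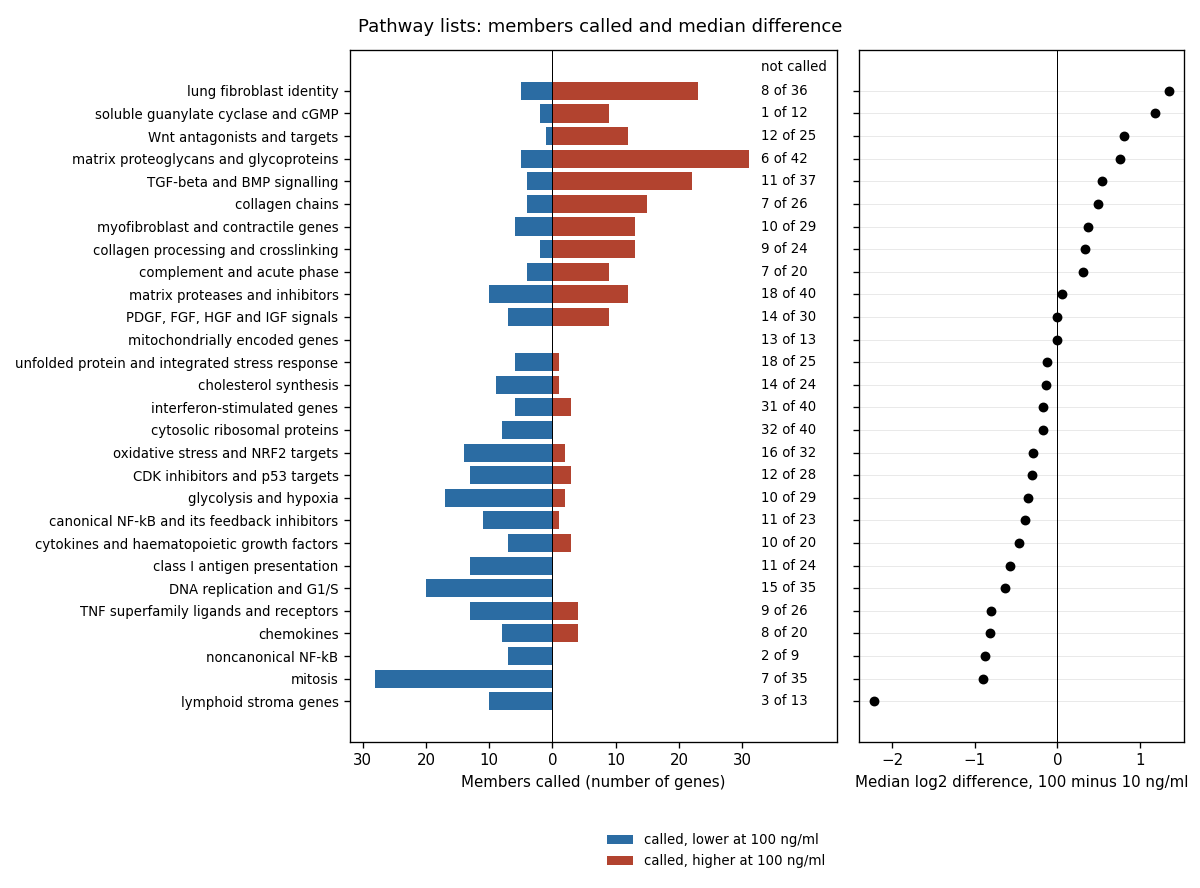
Left, the number of members of each of 28 lists called lower (blue) or higher (red) at 100 ng/ml, with the number not called of those tested. Right, the median log2 difference of the tested members, which runs from -2.22 for lymphoid stroma genes to 1.35 for lung fibroblast identity.

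Cell cycle genes were lower at 100 ng/ml. Of 35 mitosis genes 28 fell and none rose (median -0.90), and of 35 genes of DNA replication and G1/S 20 fell and none rose (median -0.64). Mki67, a marker of cycling cells, stood at 44.6 and 51.3 CPM at 10 ng/ml and at 18.9 and 23.7 CPM at 100 ng/ml. The doses did not overlap, and the 100 ng/ml libraries were above the untreated 14.5 and 15.4 CPM. The difference was -1.17 ± 0.14 (edgeR adjusted p = 0.000901). Top2a, a topoisomerase of dividing cells, fell from 71.3 and 76.1 to 37.3 and 43.3 CPM, and Uhrf1, a factor of maintenance methylation in S phase, from 49.6 and 44.0 to 16.7 and 18.1 CPM. Mcm5 and Mcm2, of the replicative helicase, fell by 1.36 ± 0.14 and 0.68 ± 0.09 on the log2 scale. E2f1 and Cdk1 were not called (edgeR adjusted p = 0.932 and 0.109). Fewer cycling cells and less RNA per cell cannot be told apart in bulk samples. The 28 falls of the mitosis list were 10 without TWEAK100 replicate 1, 12 without TWEAK10 replicate 1 and 17 without TWEAK10 replicate 2, and the 20 of the replication list were 13 without TWEAK100 replicate 1.

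Promoters of mitotic genes often carry CCAAT boxes, the element of the factor NF-Y, and 21 of 28 mitosis genes with a promoter hold CCAAT on either strand (75%), against 36.3% of all promoters. A pair is shown because both genes fell and hold several, in capitals.

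Top2a (chr11:99024190-99024439, minus strand): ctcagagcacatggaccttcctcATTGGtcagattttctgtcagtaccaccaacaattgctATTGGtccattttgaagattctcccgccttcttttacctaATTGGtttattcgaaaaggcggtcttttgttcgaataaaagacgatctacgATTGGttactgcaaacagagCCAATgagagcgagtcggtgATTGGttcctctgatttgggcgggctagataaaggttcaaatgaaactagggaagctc
Ccnb1 (chr13:100786487-100786736, minus strand): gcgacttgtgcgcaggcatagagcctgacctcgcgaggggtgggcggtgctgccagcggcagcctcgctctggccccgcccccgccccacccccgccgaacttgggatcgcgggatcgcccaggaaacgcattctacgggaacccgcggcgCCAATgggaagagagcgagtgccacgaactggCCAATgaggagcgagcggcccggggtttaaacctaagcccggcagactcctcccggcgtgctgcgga

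Top2a holds 6 matches and Ccnb1, which encodes cyclin B1, holds 2. Expression of Ccnb1 fell from 12.1 and 10.2 to 6.96 and 5.68 CPM (-0.81 ± 0.18). Of the 23 mitosis genes that were called and have a promoter, 18 hold the letters (78.3%), so the share is much the same in the whole list.

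Inhibitors of cyclin-dependent kinases and p53 targets had 13 of 28 members lower, 3 higher and 12 not called (median -0.31). Cdkn2b, which encodes p15, fell from 68.4 and 66.8 to 27.6 and 23.8 CPM, and Mdm2, the ligase of p53, from 247 and 270 to 126 and 121 CPM. Plk2, a polo-like kinase, fell from 342 and 365 to 147 and 146 CPM (-1.27 ± 0.07). Cdkn1b, which encodes p27, rose from 48.0 and 51.1 to 97.1 and 88.8 CPM. The 100 ng/ml libraries of Cdkn1b lay above the untreated 80.1 and 81.1 CPM.

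Among stress and metabolic genes, falls outnumbered rises. Of 32 oxidative stress and NRF2 target genes 14 fell and 2 rose (median -0.29). Slc7a11, the cystine transporter, stood at 149 and 192 CPM at 10 ng/ml and at 35.2 and 28.1 CPM at 100 ng/ml (-2.43 ± 0.15, edgeR adjusted p = 4.75e-05), and Hmox1, heme oxygenase 1, at 553 and 550.5 and at 268 and 253 CPM. The doses were apart in both genes. The rises, Gpx3 and Me1, were 1 when any single library was left out. Of 29 glycolysis and hypoxia genes 17 fell and 2 rose (median -0.36). Pgk1, a glycolytic kinase, fell from 573.5 and 584 to 332 and 328 CPM, and Slc2a1, the glucose transporter GLUT1, from 263 and 265 to 162 and 165 CPM. Hif1a was not called (edgeR adjusted p = 0.084). The 17 falls were 11 without TWEAK100 replicate 2, and the 2 rises 1 without either 100 ng/ml library or TWEAK10 replicate 1.

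Secretory stress and sterol genes moved less. Of 25 genes of the unfolded protein and integrated stress response 18 were not called, 6 fell and 1 rose (median -0.13). Asns, asparagine synthetase, fell from 90.0 and 93.4 to 54.6 and 57.4 CPM, while the chaperone gene Hsp90b1 had a difference of 0.09 ± 0.05. Of 24 cholesterol synthesis genes 9 fell and 1 rose (median -0.14). Those falls were 4 without TWEAK100 replicate 2 or TWEAK10 replicate 1 and 5 without TWEAK10 replicate 2, and the rise, Msmo1, was lost without either 100 ng/ml library or TWEAK10 replicate 1. Over all genes tested 11.2% were called lower and 10.7% higher. Of 40 cytosolic ribosomal protein genes 8 fell and none rose (median -0.18), Rpl3 by 0.35 ± 0.06 on the log2 scale. Their number was 1 without TWEAK100 replicate 1 or TWEAK10 replicate 1, 3 without either untreated library and 4 without either 30 ng/ml library. None of the 13 mitochondrially encoded genes was called by edgeR, and their median was -0.01. Mitochondrial transcripts took between 3.54% and 3.86% of counts in all 8 libraries.

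The largest differences lay partly outside these lists. Among genes with a mean level of 5 CPM or more, Ces1g, a carboxylesterase, rose from 0.668 and 0.912 to 15.4 and 18.9 CPM (4.43 ± 0.38). Clec3b, which encodes tetranectin, rose from 2.30 and 1.92 to 29.9 and 35.9 CPM, St8sia2, a polysialyltransferase, from 2.91 and 2.76 to 42.0 and 39.2 CPM, and Adamts15 from 15.7 and 13.6 to 187 and 192 CPM. The other large rises were those of Prss35, Olfml1 and Gdf10, between 3.57 and 3.91 on the log2 scale. In each of these the untreated libraries were the highest of the 3 groups. Pcdhga2 had the largest fitted rise, 4.97 ± 1.29, but its 100 ng/ml libraries stood at 599 and 26.8 CPM, and without TWEAK100 replicate 1 the difference was 1.43 (edgeR adjusted p = 0.177).

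Of the large falls, Myh15, a myosin heavy chain gene, had 793 and 1399 counts at 10 ng/ml, 3 in each library at 100 ng/ml and 0 in untreated cells. The ratio of 10 over 100 ng/ml was 366, with a 95% counting interval from 168 to 997. Colq, which encodes the collagen tail of acetylcholinesterase, had 904 and 1064 against 24 and 5 counts, a ratio of 67.9 (47.1 to 102). Its fitted log2 difference was -7.58 without TWEAK100 replicate 1 and -5.34 without TWEAK100 replicate 2. That of Acpp was -5.17 without TWEAK100 replicate 2. Counting intervals cover counting error only. The receptor subunit genes Csf2rb and Il2rg, shared by several cytokine receptors, fell from 24.8 and 35.5 to 0.905 and 1.25 CPM and from 39.0 and 36.8 to 1.74 and 2.00 CPM. Upp1, uridine phosphorylase, Acpp and Extl1 fell by between 4.18 and 4.51 on the log2 scale. For these genes the untreated libraries were at or under 0.522 CPM.

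Of the 3816 called genes, 2793 (73.2%) had their 100 ng/ml mean between those of untreated and 10 ng/ml cells, against 53.8% of all genes tested. In 1007 (26.4%) the untreated mean lay between the doses, against 29.9% of all genes. In 16 (0.419%) the 10 ng/ml mean lay between the untreated and the 100 ng/ml mean, against 16.4% of all genes. The mean at 30 ng/ml was nearer to 10 than to 100 ng/ml in 3523 of the called genes (92.3%), against 67.6% of all genes. Against untreated cells 5075 genes (29.2% of those tested) were called at 10 ng/ml and 194 (1.12%) at 100 ng/ml. At both doses and in 1 direction 187 genes were called. Of these, 165 were called between the doses and nearer to untreated at 100 ng/ml, and 19 were not called between the doses. The other 3, Apaf1, Rpl41 and Nectin3, were farther from untreated at 100 ng/ml. The 3 were picked out after their values were seen. The comparisons of the doses with untreated cells and with each other share libraries, so these counts are descriptions.

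**Figure D5:**
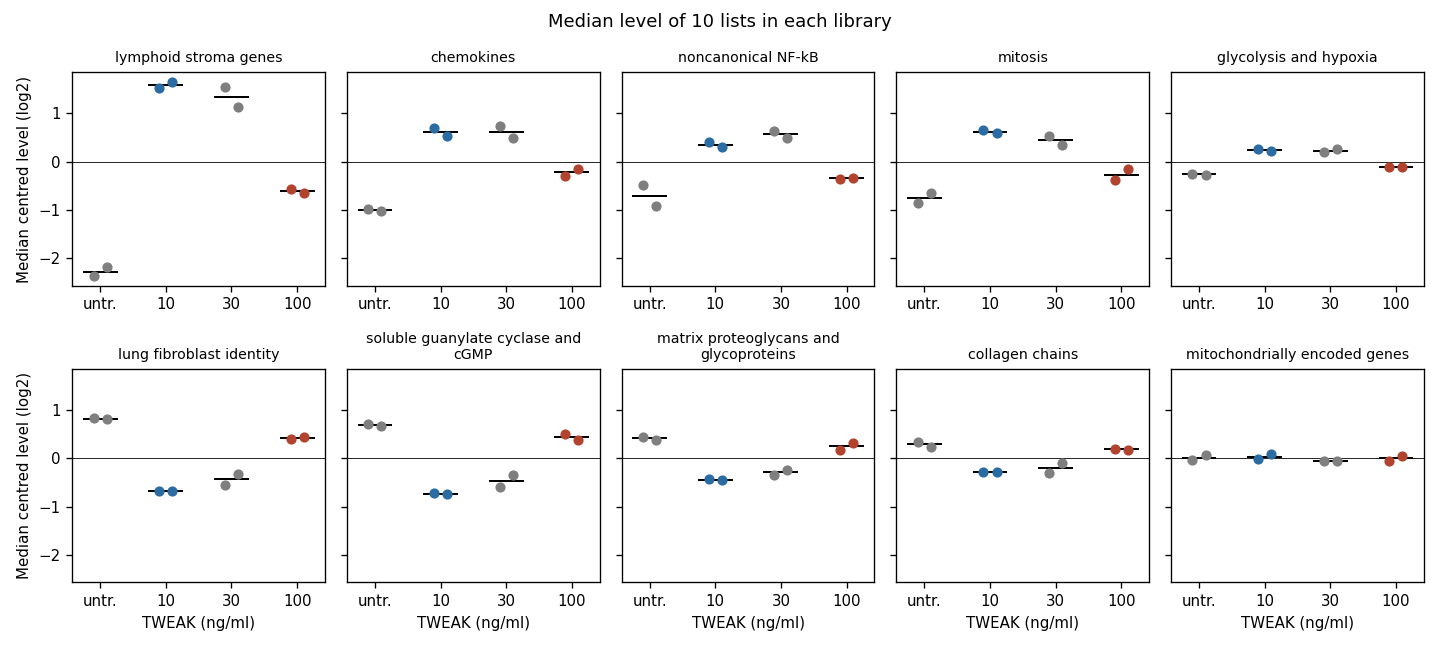
Points are the 8 libraries, at the median over the tested members of 10 lists of log2(CPM + 0.1), each gene centred on its mean over the libraries, with bars at group means. Lymphoid stroma genes lie at 1.52 and 1.65 in the 10 ng/ml libraries, at -0.56 and -0.65 at 100 ng/ml and at -2.37 and -2.19 in untreated cells, and mitochondrially encoded genes lie near 0 in all.

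Among the 19 genes that kept the same side of untreated at both doses without a call between them were Akr1c18, an aldo-keto reductase, Aqp1, a water channel, and Dhrs3, a retinoid-metabolising enzyme. Dhrs3 stood at 34.0 and 32.6 CPM in untreated cells, at 11.8 and 10.0 CPM at 10 ng/ml and at 11.0 and 14.5 CPM at 100 ng/ml. Aqp1 stood at 13.1 and 11.0, at 34.0 and 28.9 and at 25.2 and 24.1 CPM. Dhrs3 was low and Aqp1 high in all 4 treated libraries of this comparison, and the doses differed by 0.22 ± 0.16 and -0.35 ± 0.12 (edgeR adjusted p = 0.381 and 0.0817). A p that misses the threshold does not show that the doses acted alike.

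In 3 genes the untreated mean lay between the doses and the 100 ng/ml libraries were also called against untreated cells, all higher. Il6st, which encodes gp130, the signal-transducing receptor chain shared by the IL-6 family, stood at 688 and 651 CPM in untreated cells, at 539 and 516 CPM at 10 ng/ml, at 591 and 599 CPM at 30 ng/ml and at 1106 and 1172 CPM at 100 ng/ml. The 100 ng/ml libraries were above all others and the 10 ng/ml libraries below all others. Between doses the log2 difference was 1.11 ± 0.05 (edgeR adjusted p = 3.09e-05). Against untreated cells it was 0.77 ± 0.05 at 100 ng/ml and -0.34 ± 0.05 at 10 ng/ml (edgeR adjusted p = 0.00115 and 0.00221). Il6st lies on chromosome 13 from 112464070 to 112510086 on mm10. Chmp3, a subunit of the ESCRT-III membrane-scission complex, stood at 44.0 and 40.1 CPM at 10 ng/ml and at 129 and 118 CPM at 100 ng/ml, with 62.7 and 50.5 CPM in untreated cells (1.55 ± 0.15, edgeR adjusted p = 0.000264). Plpp5, a lipid phosphatase, stood at 20.3 and 17.6 against 43.7 and 38.7 CPM, with 21.4 and 20.1 CPM in untreated cells (1.12 ± 0.14, edgeR adjusted p = 0.00111).

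Markers of other cell types were low but not level. Summed epithelial markers stood at 6.97 and 6.97 CPM at 10 ng/ml and at 6.23 and 7.38 CPM at 100 ng/ml. Of these 13 markers 5 were tested, with 1 called higher and 1 lower. Ager stood at 3.39 and 4.51 against 1.21 and 1.65 CPM, and Hopx at 0.882 and 0.538 against 3.59 and 4.3 CPM. Summed endothelial markers stood at 152 and 182 CPM at 10 ng/ml and at 94.2 and 84.9 CPM at 100 ng/ml, of which Calcrl held 142 and 168 and 81.6 and 72.4 CPM. Pecam1 was at most 0.468 CPM in any library. Cdh5 stood at 4.27 and 3.81 CPM at 10 ng/ml and at 0.528 and 0.525 CPM at 100 ng/ml. Tek went the other way, from 1.23 and 1.68 to 4.25 and 4.05 CPM. Of the 12 endothelial markers 8 were tested, with 1 called higher and 2 lower. Summed macrophage and myeloid markers stood at 62.8 and 73.0 against 47.5 and 50.7 CPM. Cd14 held 38.7 and 44.3 and then 18.7 and 25.4 CPM of these sums, and Lyz2 12.7 and 15.8 and then 19.9 and 15.3 CPM, with Ptprc at most 0.65 CPM in any library. Mesothelial markers summed to 9.94 and 7.62 against 15.8 and 19.4 CPM, with 3 of 10 called higher, and Schwann cell and melanocyte markers to 9.70 and 9.75 against 20.7 and 25.8 CPM, of which Mlana held 3.66 and 3.39 and 13.3 and 16.2 CPM, with Sox10 at 0. No lymphocyte or red blood cell marker had enough counts to be tested. The part of these markers in the results was not tested.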

How the data were processed

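RNA from primary mouse lung fibroblasts was sequenced in 8 libraries, and the authors deposited the raw counts, as whole reads for each gene row without normalization, in 1 table. STAR, StringTie and the mm10 build are named in the submitters' processing notes, without versions or roles. How reads were counted, and whether by strand, is not given in the sources used here. Of 55335 rows, 3225 without a symbol (0.168% to 0.178% of counts) were left out, and 80 symbols on more than 1 row were kept apart by row.

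All 8 libraries entered 1 quasi-likelihood fit in edgeR 4.0.16 (R 4.3.3), with a mean per group, TMM scaling and filterByExpr, which left 17360 genes. The comparison of 100 with 10 ng/ml was tested two-sided with Benjamini-Hochberg adjustment over all of them, at a threshold of 0.05. Standard errors come from the log2 difference and its F statistic. CPM are scaled by TMM. Total counts ran from 37278985 to 50810783, so that 3 counts stood for 0.0590 to 0.0805 CPM. The chi-square per degree of freedom between replicates was 22.72 to 27.58, above sampling noise. The fit was checked on simulated counts, in which 68 genes were changed 1.5-fold, 69 2-fold and 63 4-fold at 100 ng/ml. Of these, 14.7%, 66.7% and 87.3% were recovered. Of the 122 calls in the simulation 11 were false, a larger share than the threshold of 0.05. Far fewer genes were changed there than were called in the data, and all averaged over 1 CPM. The recovered shares therefore do not give the sensitivity of the fit on the data.

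The members and gene lists were chosen with earlier results of these data known, and some lists were written by a session that had seen them. The rule for named genes took the ligand and the receptor. It took the 12 largest called rises and the 12 largest called falls among genes averaging 5 CPM or more without overlap between doses. Predicted genes, symbols on more than 1 row and symbols turned into dates were left out of these. Each list gave up to 4 members with the smallest p, called or not. It also gave up to 2 uncalled members with the highest mean. Genes beyond untreated cells or called at both doses were also part of the rule. Members that make up a small count, such as the chemokines that rose, and the genes Acta2, Cd34, Lpl, Cxcl10 and Ccnb1 fall outside it and were chosen after their values were seen. Not every gene the rule names is printed, and a few are not reported here. Positions are those of GENCODE M21 on mm10, and promoters those of RefSeq on GRCm38.p6, searched on both strands for the kappa B consensus, a looser form of it and CCAAT. Alternatives were DESeq2 1.42.0, limma-voom (limma 3.58.1), other scalings, filters, samples and a replicate block, and leaving out each library.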

Additional observations from a re-analysis of the deposited data

How the results depend on the processing

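Across the alternatives run, no gene was called in the opposite direction between the doses. DESeq2 called 4112 genes and limma-voom 3798. In edgeR, scaling by DESeq2 size factors gave 3808 calls and by library totals 3833. Testing all genes gave 3203, testing those averaging 1 CPM or more 3936, and fitting only the 4 libraries compared 3130. Asking for an absolute log2 difference of at least 1 left 1249 calls, 614 higher and 635 lower at 100 ng/ml. Leaving out 1 library gave between 2406 and 3545 calls, of which 1221 to 1767 were higher and 1185 to 1783 lower. A library left out makes its group 1 sample, which is then assumed to vary like the other groups. Of the 3816 calls, between 59.8% (without TWEAK100 replicate 1) and 89.3% (without TWEAK30 replicate 2) were kept in the same direction. Replicate numbers are shared between groups, and the labels do not say whether they pair the samples. Deviations of same-numbered libraries of the 2 doses had a correlation of -0.0722, and the main fit used no pairing. With a replicate block 3340 genes were called, 1642 higher and 1698 lower. Of 128 named genes that were called, 120 kept the call under all alternatives run and 8 lost it under at least 1, among them Tnfsf12, Tnfrsf12a, Pcdhga2, Isg20, Rpl5 and Rps6. After seeing the data, 2 alternatives were added. Thinning all libraries to the lowest total gave 3796 calls. Leaving out genes whose 2 libraries differed over 2-fold at either dose kept the adjusted p of the main fit, without a new fit. It could only remove calls, and left 3733, as 83 of the calls were among these genes. With 2 libraries a dose, small differences could not be tested with precision.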

Other observations

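Genes outside the lists, chosen after their values were seen, add to the description. Ccnd1, which encodes cyclin D1, stood at 208 and 196 CPM at 10 ng/ml and at 45.7 and 43.8 CPM at 100 ng/ml (-2.17 ± 0.12, edgeR adjusted p = 4.2e-05). The hyaluronan receptor gene Cd44 fell from 713 and 796 to 203 and 158 CPM, and Sulf1, a sulfatase of heparan sulfate, from 1558 and 1633 to 403 and 398 CPM. Ptgs2, the inducible cyclooxygenase, fell from 115 and 146 to 30.8 and 32.1 CPM. In these 4 genes the 100 ng/ml libraries lay slightly above the untreated ones. Gsn, which encodes the actin-severing protein gelsolin, rose from 634 and 531 to 1972 and 2186 CPM, and Gas1, a growth-arrest gene, from 107 and 103 to 393 and 391 CPM (1.90 ± 0.09). Vegfd, a lymphatic growth factor, rose from 60.5 and 48.1 to 263 and 286 CPM, while its relative Vegfc fell.

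Beside Il6st, 3 other receptor genes of the IL-6 family are given, picked after their values were seen and not a tally of the family. Il6ra stood at 26.6 and 25.4 CPM at 10 ng/ml and at 47.3 and 44.5 CPM at 100 ng/ml, with 50.7 and 52.3 CPM in untreated cells (0.82 ± 0.10, edgeR adjusted p = 0.000725). Osmr, the oncostatin M receptor, rose by 0.33 ± 0.04 and Lifr, the receptor of leukemia inhibitory factor, by 0.37 ± 0.08 on the log2 scale (edgeR adjusted p = 0.0015 and 0.0118). The 100 ng/ml libraries stood at 739 and 750.3 against 733 and 719 CPM in untreated cells for Osmr and at 193 and 175 against 180.1 and 184 CPM for Lifr.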
